A study of Mus musculus with 9 samples.

Results

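Of the 55322 genes measured, 10 are described here, 9 chemokine receptors and 1 receptor for sphingosine 1-phosphate (S1P). They were chosen by gene symbol as receptors that hold leukocytes in BM or guide them out of it and into tissues. They are Cxcr4, S1pr1, Cxcr5, Ccr7, Ccr6, Ccr9, Ccr1, Ccr2, Cx3cr1 and Cxcr2. RNA was sequenced in 9 libraries from WT C57BL/6 mice, 3 in each of 3 groups. CD11b+ B cells and CD11b- B cells came from BM taken 48 h after LPS at 5 mg/kg had been injected. Peritoneal macrophages (PMs, CD11b+F4/80+) came from naive mice that had received no LPS. BM cells bearing CD3, CD4, CD8, Gr-1, NK1.1 or TER119 had been removed with magnetic beads before the B cells were sorted, and the sources used here give neither the age of the mice nor whether mice were pooled. The authors plotted RNA values with SD, which their methods keep for biological replicates, without saying whether each library came from 1 mouse.

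Chemokine receptors couple to Gi proteins and steer cells along gradients of chemokines made by stromal and myeloid cells. CXCR4 holds B cell precursors, neutrophils and stem cells in BM through CXCL12, while S1PR1 draws mature lymphocytes and newly made B cells out of tissue towards the S1P of blood. CXCR5, CCR7 and CCR6 place mature B cells in follicles, at the T cell border and at mucosal sites, CCR9 leads cells to the gut, and CCR1, CCR2, CX3CR1 and CXCR2 direct macrophages, monocytes and neutrophils. The comparisons ask which of these RNAs differ between B cells with and without CD11b on their surface, and how each B cell population stands against a macrophage.

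In both B cell groups the receptors of mature B cells led. In CD11b- B cells the highest mean was that of Ccr7 at 125 FPKM, followed by S1pr1 at 119, Cxcr5 at 79.5, Ccr6 at 18.2, Cxcr4 at 6.41 and Ccr1 at 6.25 FPKM. FPKM scales the fragments of a gene to its exon length and to the depth of the library, so genes can be set beside each other. The libraries of Ccr7 and S1pr1 overlapped, as did those of Cxcr4 and Ccr1, while each of the other steps down to Ccr1 was larger than the spread between libraries. In CD11b+ B cells S1pr1 stood first at 95.5 FPKM, then Ccr7 at 82.6, Cxcr5 at 74.7, Ccr6 at 24.7, Ccr1 at 8.11 and Cxcr4 at 6.24 FPKM. Here the libraries of S1pr1, Ccr7 and Cxcr5 overlapped along that order, and so did those of Ccr1 and Cxcr4. The other 4 receptors, Cxcr2, Ccr9, Ccr2 and Cx3cr1, had means under 1 FPKM in both B cell groups. In PMs the order was Ccr1 at 159 FPKM, S1pr1 at 69.0, Ccr2 at 15.0 and Cxcr5 at 5.26 FPKM, with no overlap between neighbours down to Cx3cr1 at 1.21 FPKM, and Cxcr4, Ccr7, Ccr6, Cxcr2 and Ccr9 were lower.

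**Figure D1:**
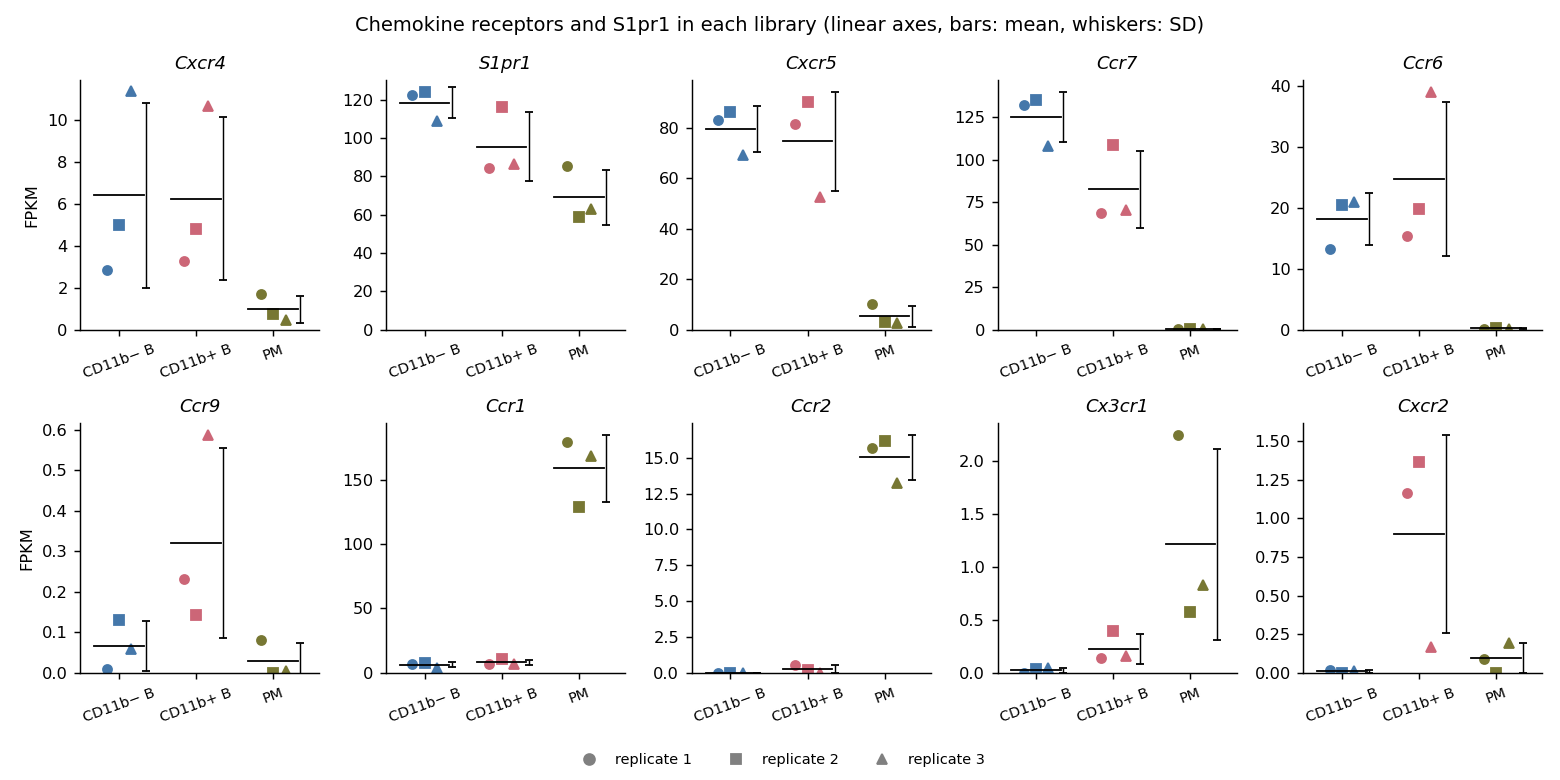
FPKM of the 10 receptors in each library, on linear axes that start at 0 and differ between panels. Points are libraries (circle, square and triangle for replicates 1, 2 and 3), bars are group means and whiskers are the SD over 3 libraries. Cxcr5, Ccr7 and Ccr6 are high in both B cell groups, Ccr1 and Ccr2 in PMs, and Cxcr4 reaches 11.4 and 10.7 FPKM in replicate 3 of the CD11b- and CD11b+ B cells.

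The groups carried the genes of their labels. Cd79a, a signalling chain of the B cell receptor, ranged from 2250 to 2580 FPKM in CD11b- B cells, from 1848 to 2207 FPKM in CD11b+ B cells and from 21.6 to 35.4 FPKM in PMs. The 12 B cell markers without Ighm, the highest of them, summed to 7555 to 8008 FPKM in CD11b- and 6031 to 6952 FPKM in CD11b+ B cells, without overlap. Between these groups limma called 0 of the 12, beside 0.0689% of all genes, and 0 had an unadjusted p under 0.05, beside 7.68%. By edgeR and DESeq2 the number called was 0 too, beside 0.269% and 2.09%. The RNA of the sorting marker CD11b, Itgam, was at 1.92, 1.31 and 1.51 FPKM in CD11b+ B cells, at 0.400, 0.251 and 0.869 FPKM in CD11b- B cells and at 251 to 358 FPKM in PMs. Reads on genes numbered 18014658 to 29208721 per library in PMs, 32056102 to 34895579 per CD11b- library and 26174718 to 35251215 per CD11b+ library. Genes with a read numbered 17386 to 17526 in PMs, 21128 to 22882 in CD11b- and 23767 to 27321 in CD11b+ libraries. Marker lists of B cell precursors, plasma cells, neutrophils and monocytes moved between the B cell libraries, and their values stand beside the receptors they touch. In 3 further lists of 8 markers each, the summed level was higher in every CD11b+ than in every CD11b- library. For basophils, mast cells and eosinophils it was 5.20 to 17.1 FPKM in CD11b+ B cells, 0.263 to 1.99 FPKM in CD11b- B cells and 0.040 to 1.86 FPKM in PMs. For erythroid cells and platelets it was 34.3 to 44.5, 6.08 to 23.7 and 2258 to 3290 FPKM in the same order, although cells bearing TER119 had been removed from the BM, and Pf4 at 2257 to 3290 FPKM was nearly all of it in PMs. For dendritic cells it was 54.1 to 80.6, 40.0 to 45.9 and 170 to 256 FPKM, nearly all of it Bst2 in the B cells, where the other 7 markers summed to 2.07 to 2.68 FPKM with CD11b and 0.765 to 2.53 FPKM without, and overlapped. Between the B cell groups limma called 0 genes of these 3 lists, with an unadjusted p under 0.05 for 1 of 7, 2 of 8 and 2 of 7 tested, beside 0.0689% and 7.68% of all genes. edgeR and DESeq2 called 0 as well, edgeR without a filter called 2, 2 and 0, and their part in the levels of the receptors was not tested.

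Promoter sequence was looked up for the receptors in a RefSeq table on GRCm38.p6, which held 8 windows for 7 of the 10 (none for Cxcr5, Ccr7 and S1pr1). The 250 bases before the start of 3 receptors are shown, Ccr1 as the highest receptor of PMs, Ccr6 as a receptor far higher in B cells than in PMs, and Cxcr4 as the retention receptor. They lie at chr9:123968693-123968942 (minus strand), chr17:8235793-8236042 (plus strand, the upstream of 2 windows for this gene) and chr1:128592300-128592549 (minus strand). Capitals mark the PU-box GAGGAA (a core letter string of ETS factors such as PU.1), the octamer ATTTGCAT (bound by OCT1 and OCT2) and the TATA box TATAAA, each on either strand.
Ccr1: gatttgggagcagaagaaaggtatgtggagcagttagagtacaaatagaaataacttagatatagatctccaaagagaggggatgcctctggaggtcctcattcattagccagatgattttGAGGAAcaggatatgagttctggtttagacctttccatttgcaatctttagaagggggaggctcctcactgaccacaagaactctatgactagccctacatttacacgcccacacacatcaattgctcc
Ccr6: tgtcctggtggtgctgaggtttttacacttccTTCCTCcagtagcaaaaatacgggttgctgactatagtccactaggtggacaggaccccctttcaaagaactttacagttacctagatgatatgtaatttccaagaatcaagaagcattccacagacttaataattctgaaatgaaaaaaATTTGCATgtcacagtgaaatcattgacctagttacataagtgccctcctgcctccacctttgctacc
Cxcr4: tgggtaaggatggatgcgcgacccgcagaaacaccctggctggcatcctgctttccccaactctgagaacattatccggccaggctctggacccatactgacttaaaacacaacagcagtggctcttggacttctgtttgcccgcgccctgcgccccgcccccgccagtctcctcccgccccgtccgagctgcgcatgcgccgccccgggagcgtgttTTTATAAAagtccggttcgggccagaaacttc

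The PU-box starts at position -129 in Ccr1 and, on the opposite strand, at -218 in Ccr6, counted back from the annotated start. It was in 3 of the 8 windows (Cxcr2, Ccr1 and Ccr6) and in 23.3% of all 32851 windows of the same length. The octamer was found in the Ccr6 window alone, at -68, and in 1.60% of all windows. TATAAA was found in the Cxcr4 window alone, where matches on both strands overlap to give TTTATAAA, and in 12.4% of all windows. CACCC (a KLF core) was in 4 of the 8 windows (Cxcr2, Cxcr4, Cx3cr1 and Ccr9) against 52.0% of all, and TCCC and GGGA 2 bases apart (EBF), TTGCNNAA (C/EBP) and GGGA and TTTCC 1 base apart (kappaB) were in none of the 8 against 0.779%, 9.56% and 0.356% of all. The Cxcr4 window held 19 CG dinucleotides at 61.2% GC, whereas the Ccr1 and Ccr6 windows shown each held 1 at 43.6% and 41.2% GC, beside medians of 6 and 52.4% over all windows.

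Between CD11b+ and CD11b- B cells no receptor passed the test. By limma on log2(FPKM + 1), with Benjamini-Hochberg adjustment over the 21778 genes tested and a threshold of 0.05, 0 of the 10 receptors were called, beside 0.0689% of all genes, each of those higher with CD11b. Receptors with an unadjusted p under 0.05 numbered 2, Ccr7 (lower) and Cxcr2 (higher), beside 7.68% of all genes. edgeR on the whole reads with its filter on low counts, which removed Ccr2, called 0 of the other receptors and 0.269% of all genes. DESeq2 (2.09% of all genes called) and edgeR without a filter (1.53%), the latter chosen after the data were seen, each called Cxcr2 and Ccr2 as higher in CD11b+ B cells. The median log2 difference of the 10 receptors was 0.27, beside 0.03 over all genes tested. Without overlap between the groups, 3 receptors (Ccr9, Cxcr2 and Cx3cr1) were higher in CD11b+ B cells, as were 8.63% of all genes. All 3 were under 1 FPKM on average in both groups, and every CD11b+ library had more genes with a read than any CD11b- library, a difference whose part in these low values was not tested. In bulk RNA, fewer cells of a type and less RNA per cell cannot be told apart.

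Cxcr4 (chr1:128588199-128592293 on GRCm38, minus strand), the receptor that retains cells in BM, did not separate the B cell groups. It was at 2.87, 4.99 and 11.4 FPKM in CD11b- B cells and at 3.26, 4.82 and 10.7 FPKM in CD11b+ B cells (replicates 1, 2 and 3). The groups overlapped throughout, and replicate 3 was the highest in both. The difference in log2(FPKM + 1) was 0.0033 (SE 0.49, 95% interval -1.13 to 1.14, adjusted p = 0.999 by limma), so that neither a rise nor a fall of about 1 log2 unit was outside the interval. That fit did not pair libraries. By replicate number, the ratio of CD11b+ to CD11b- was 1.14, 0.965 and 0.937, though the labels do not say whether a number marks shared mice. The sign of a difference so near to 0 turned with the setting, from -0.41 without CD11b+ replicate 3 to 0.46 without CD11b- replicate 3.

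The same libraries stood out in markers of B cell precursors. Rag1, which cuts immunoglobulin genes before recombination, was at 0.014, 0.091 and 14.0 FPKM in CD11b- B cells and at 0.021, 0.069 and 2.96 FPKM in CD11b+ B cells. Igll1, a part of the surrogate light chain, was at 53.9 and 12.7 FPKM in replicate 3 of the CD11b- and CD11b+ B cells, and the highest of the other B cell libraries was at 1.39 FPKM. Over the list of 10 precursor genes, replicate 3 was the highest library for 10 of 10 genes in CD11b- B cells and for 9 of 10 in CD11b+ B cells. Its summed level was 411, 406 and 1379 FPKM in CD11b- B cells, 299, 340 and 620 FPKM in CD11b+ B cells and 1.96 to 3.48 FPKM in PMs, and Dntt had no read in PMs. Vpreb3 made up most of these sums. Without it, the other 9 genes summed to 3.48, 3.38 and 191 FPKM in CD11b- B cells and to 3.89, 5.01 and 45.4 FPKM in CD11b+ B cells. Between the B cell groups limma, edgeR and DESeq2 called 0 of the 10, beside 0.0689%, 0.269% and 2.09% of all genes. With edgeR without a filter it was 8 of the 10, beside 1.53%. For microscopy at the same time after LPS, the authors took CD11b+ and CD11b- cells from mature B cells. The sources used here do not describe the B cell gate of the sort for RNA, so whether it took in precursors is not known. Replicate 3 was also the highest library for 7 of 7 plasma cell markers in CD11b- B cells and for 4 of 7 in CD11b+ B cells. The part of precursors or plasma cells in the level of Cxcr4 was not tested. The 2 genes most like Cxcr4 over the 9 libraries, by the correlation of log2(FPKM + 1) among 14218 genes, were Gpatch2 (r = 0.979) and Grk2 (r = 0.970), a kinase that desensitizes chemokine receptors. Grk2 was also highest in replicate 3 of both B cell groups, at 86.5 FPKM in CD11b- and 99.5 FPKM in CD11b+ B cells.

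**Figure D2:**
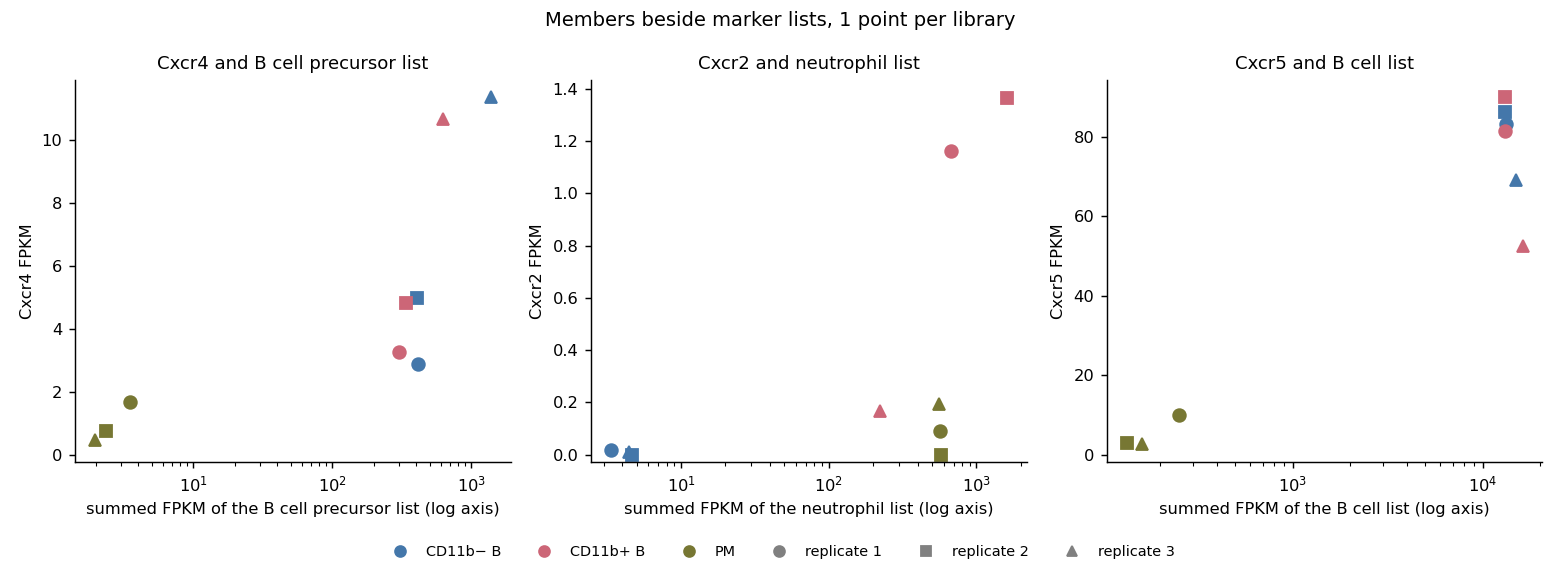
Cxcr4, Cxcr2 and Cxcr5 (FPKM, linear axes) against the summed FPKM of the B cell precursor, neutrophil and B cell marker lists (log axes), with 1 point per library. The replicate 3 libraries of both B cell groups are highest for Cxcr4 and the precursor list, CD11b+ replicates 1 and 2 are highest for Cxcr2 and the neutrophil list, and PM replicate 1 leads the PMs in Cxcr5 and the B cell list.

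S1pr1 (chr3:115710433-115715072, minus strand), the egress receptor, was among the most abundant receptors in all 3 groups. Its level was 123, 124 and 109 FPKM in CD11b- B cells and 84.2, 116 and 86.3 FPKM in CD11b+ B cells. CD11b+ replicates 1 and 3 lay below all of the CD11b- libraries and replicate 2 lay between them. The log2 difference was -0.32 (SE 0.16, 95% interval -0.69 to 0.05, adjusted p = 0.680 by limma) and did not pass the test. It was negative under every alternative run, from -0.47 to -0.24. S1pr1 was at the 98.6th percentile of genes with a read in CD11b- B cells and at the 98.4th in CD11b+ B cells.

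Ccr7 (chr11:99144196-99155077, minus strand), the receptor for CCL19 and CCL21 that brings B cells to the T cell zone, had the largest difference in mean FPKM between the B cell groups. It was at 132, 135 and 108 FPKM in CD11b- B cells and at 68.8, 109 and 70.2 FPKM in CD11b+ B cells. CD11b+ replicate 2 was just above the lowest CD11b- library, and replicates 1 and 3 were below all of them. The log2 difference of -0.62 (SE 0.20, 95% interval -1.09 to -0.15) had an unadjusted p of 0.0156 and an adjusted p of 0.531 by limma. Over the alternatives the adjusted p ranged from 0.0675 to 0.830 and the difference from -0.83 to -0.51.

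Cxcr5 (chr9:44511787-44561877, minus strand), the receptor for CXCL13 that leads B cells into follicles, was at 83.2, 86.2 and 69.1 FPKM in CD11b- B cells and at 81.6, 90.1 and 52.5 FPKM in CD11b+ B cells. The groups overlapped, and replicate 3 was the lowest in both. The log2 difference was -0.12 (SE 0.21, 95% interval -0.61 to 0.37, adjusted p = 0.852 by limma) and became 0.11 without CD11b+ replicate 3. An exon of Cxcr5 overlaps Bcl9l on the other strand, and no source used here says whether the counting used strand, which leaves its values uncertain to that extent. Ccr6 (chr17:8236043-8257141, plus strand), the receptor for CCL20, was at 13.2, 20.4 and 20.9 FPKM in CD11b- B cells and at 15.4, 19.7 and 39.0 FPKM in CD11b+ B cells. Apart from CD11b+ replicate 3, which was the highest, the CD11b+ libraries fell within the range of the CD11b- libraries. The log2 difference of 0.34 (SE 0.33, 95% interval -0.42 to 1.11, adjusted p = 0.727 by limma) became -0.03 without that library.

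Ccr9 (chr9:123678439-123784330, plus strand), the receptor for CCL25 that directs lymphocytes and IgA plasma cells to the small intestine, was low in every library. It was at 0.0088, 0.131 and 0.058 FPKM in CD11b- B cells (3, 47 and 19 reads) and at 0.232, 0.141 and 0.586 FPKM in CD11b+ B cells (70, 38 and 212 reads). The lowest CD11b+ library was 1.08 times the highest CD11b- library, both replicate 2, so the groups only just failed to overlap. The log2 difference was 0.30 (SE 0.16, 95% interval -0.06 to 0.66, adjusted p = 0.686 by limma), or 0.16 without CD11b+ replicate 3. Exons of Ccr9 overlap Slc6a20a, Gm17200 and Gm17021, which adds to the uncertainty. These genes had at most 1, 15 and 0 reads in any B cell library, and Slc6a20a had 34 in PM replicate 1. CD11b+ replicate 3 also had the most Jchain, the joining chain of secreted IgA and IgM, at 449 FPKM beside 101 and 83.9 FPKM in CD11b+ replicates 1 and 2 and 6.18 to 22.7 FPKM in CD11b- B cells. Over the 7 plasma cell markers the summed level was 101 to 179 FPKM in CD11b- B cells, 252 to 641 FPKM in CD11b+ B cells and 93.8 to 154 FPKM in PMs, with every marker detected in each group. Without Jchain it was 187, 168 and 193 FPKM in CD11b+ B cells, 91.3 to 157 FPKM in CD11b- B cells and 93.1 to 153 FPKM in PMs. Replicate 3 led 4 of the 7 markers in CD11b+ and 7 in CD11b- B cells, where Ccr9 was highest in replicate 2. Between the B cell groups limma and edgeR called 0 of the 7, beside 0.0689% and 0.269% of all genes. DESeq2 and edgeR without a filter called 3 each, beside 2.09% and 1.53%. The part of this list in the level of Ccr9 was not tested.

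Cxcr2, Ccr2 and Cx3cr1, receptors of neutrophils and monocytes, had 89 to 231 reads each over the CD11b+ libraries, against 3 to 11 over the CD11b- libraries. Cxcr2 (chr1:74153989-74161246, plus strand), the receptor through which CXCL1 and CXCL2 recruit neutrophils, was at 0.020, 0 and 0.010 FPKM in CD11b- B cells and at 1.16, 1.37 and 0.168 FPKM in CD11b+ B cells. These values stood for 2, 0 and 1 reads against 104, 109 and 18 reads. All CD11b+ libraries were above all CD11b- libraries, and CD11b+ replicate 3 was 8.16 times lower than replicate 2. Per read on genes, 231 reads in all against 3 gave a ratio of 85.1 (exact 95% counting interval 28.8 to 416), which was 170 without CD11b- replicate 1, 55.5 without CD11b- replicate 2 and 128 without CD11b+ replicate 3. The log2(FPKM + 1) difference, which understates the change of a gene this low, was 0.85 (SE 0.27, 95% interval 0.23 to 1.46). Its adjusted p was 0.511 by limma, 0.0939 by edgeR with the filter, 8.35e-06 by DESeq2 and 2.62e-05 by edgeR without a filter.

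Ccr2 (chr9:124101950-124113557, plus strand), which releases inflammatory monocytes from BM in response to CCL2, was at 0.0089, 0.013 and 0.014 FPKM in CD11b- B cells and at 0.549, 0.192 and 0.013 FPKM in CD11b+ B cells. This was 2, 3 and 3 reads against 109, 34 and 3 reads. CD11b+ replicates 1 and 2 were far above the CD11b- libraries, and replicate 3 was among them. The log2 difference was 0.28 (SE 0.16, 95% interval -0.09 to 0.66), with an adjusted p of 0.699 by limma, 0.0123 by DESeq2 and 0.0300 by edgeR without a filter. Cx3cr1 (chr9:119901616-120069879, minus strand), the fractalkine receptor of patrolling monocytes and tissue macrophages, was at 0, 0.032 and 0.042 FPKM in CD11b- B cells and at 0.136, 0.390 and 0.157 FPKM in CD11b+ B cells. All CD11b+ libraries were higher, with 18, 46 and 25 reads against 0, 5 and 6. The log2 difference of 0.26 (SE 0.12, 95% interval -0.03 to 0.54, adjusted p = 0.679 by limma) did not pass the test and was 0.16 without CD11b+ replicate 2, and no count test called it. The exons of Cx3cr1 overlap Gm33858, which had no read in any library.

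Ccr1 (chr9:123962124-123968692, minus strand), a receptor for CCL3, CCL5 and CCL9 best known in macrophages and neutrophils, was the 1 myeloid receptor above 1 FPKM in every B cell library. It was at 6.95, 7.78 and 4.01 FPKM in CD11b- B cells and at 7.04, 10.6 and 6.72 FPKM in CD11b+ B cells. The groups overlapped, and the log2 difference was 0.35 (SE 0.27, 95% interval -0.28 to 0.97, adjusted p = 0.727 by limma). It came to 0.10 without CD11b- replicate 3 and to 0.16 without CD11b+ replicate 2. Its close paralog Ccr1l1 lies in the same cluster on chromosome 9, where Ccr9, Ccr1 and Ccr2 span 435119 bases, and reads shared between paralogs make such values uncertain.

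The summed markers of neutrophils, and those of monocytes and macrophages, were also higher in every CD11b+ than in every CD11b- library. The 16 neutrophil markers had a summed level of 3.35 to 4.68 FPKM in CD11b- B cells, while it was 668, 1605 and 223 FPKM in CD11b+ B cells (replicates 1, 2 and 3) and 558 to 573 FPKM in PMs, although cells bearing Gr-1 had been removed before the sort. In PMs 95.9% of the sum was Mcemp1, Prtn3 and Csf3r, with Ngp, a granule gene, at 0.140 to 0.727 FPKM and Ly6g and Stfa2l1 at 0. Of the 16, 12 were higher in every CD11b+ library than in every CD11b- library, beside 8.63% of all genes, and limma called 3 of them higher (S100a8, S100a9 and Retnlg), beside 0.0689%. Ly6g was at 0, 0.152 and 0 FPKM in CD11b- and at 1.34, 2.51 and 1.96 FPKM in CD11b+ B cells, and Stfa2l1 had no read in CD11b- B cells. The 18 monocyte and macrophage markers had sums of 54.9 to 61.0 FPKM in CD11b- B cells, 323, 302 and 144 FPKM in CD11b+ B cells and 22223 to 57067 FPKM in PMs, with 13 of the 18 higher without overlap, 0 called by limma and Cd300e at 0 where CD11b was absent. The count tests called 1 of these 18 (edgeR), 13 (DESeq2) and 12 (edgeR without a filter), and 9, 13 and 14 of the 16 neutrophil markers, beside 0.269%, 2.09% and 1.53% of all genes. Without Lyz2, which led this list, the sums were 61.8, 61.6 and 78.7 FPKM in CD11b+ B cells and 18.9 to 28.2 FPKM in CD11b- B cells, so CD11b+ replicate 3 was then the highest. An unadjusted p under 0.05 was reached by 12 of the 16 monocyte and macrophage markers tested and by 15 of the 16 neutrophil markers, beside 7.68% of all genes. The part of either list in the levels of Cxcr2, Ccr2 and Cx3cr1 was not tested. Cxcr2 was most like Gm12407, an unprocessed pseudogene (r = 0.980), and Mmp8, the neutrophil collagenase (r = 0.976), over the 9 libraries, and Mmp8 is itself in the neutrophil list.

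Against PMs, Cxcr5, Ccr7 and Ccr6 were higher and Ccr1 and Ccr2 lower in both B cell groups, while S1pr1, Ccr9, Cxcr2 and Cx3cr1 did not pass the test for CD11b+ B cells. The B cells came from the BM of mice given LPS and the PMs from the peritoneal cavity of naive mice, so cell type, tissue and treatment cannot be told apart, and both comparisons use the same PM libraries. In CD11b+ B cells 4 of the 10 receptors were called higher (Cxcr4, Cxcr5, Ccr7 and Ccr6, beside 21.5% of all genes) and 2 lower (Ccr1 and Ccr2, beside 8.78%). In CD11b- B cells 5 of the 9 tested were called higher (the same 4 and S1pr1, beside 25.8%) and 3 lower (Ccr1, Ccr2 and Cx3cr1, beside 11%), while Ccr9 was below the filter of a mean of 0.05 FPKM. Without CD11b- replicate 2 the count called higher fell to 3, Cxcr5, Ccr7 and Ccr6. In each comparison 8 of the 10 receptors did not overlap the PMs, beside 46.7% of all genes for CD11b+ and 51.4% for CD11b- B cells. Among all genes edgeR called 36.9% and 42.1%, DESeq2 36.3% and 43% and edgeR without a filter 16.8% and 23.6%. FPKM sets the B cells above PMs over genes in general, by a median log2 difference of 0.25 for CD11b+ and 0.24 for CD11b- B cells, which median-ratio scaling lowered to 0.13 and 0.07. Of the genes called with CD11b+ B cells, 71.0% were higher than in PMs by FPKM and 53.2% after median-ratio scaling, and with CD11b- B cells 70.1% and 52.5%.

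**Figure D3:**
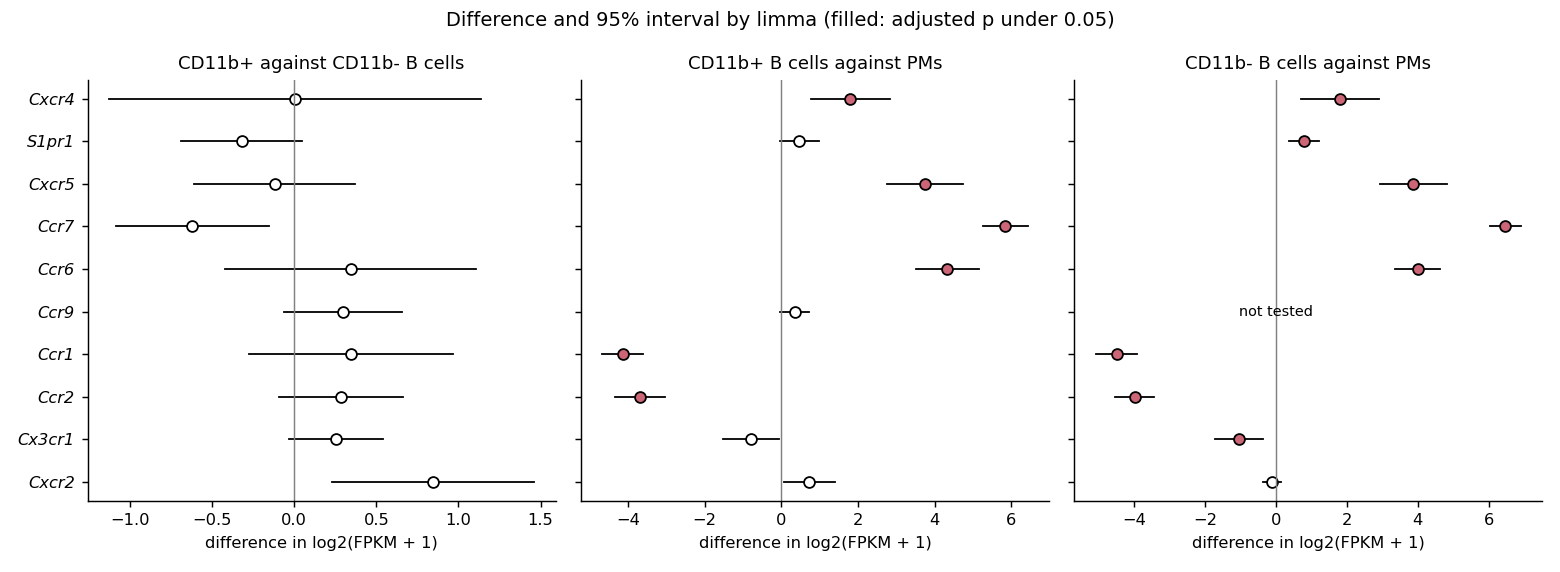
Differences in log2(FPKM + 1) for the 3 comparisons, with 95% intervals from limma on 3 libraries against 3, each panel with its own axis. Filled points have an adjusted p under 0.05. No receptor is filled between the B cell groups, and Ccr7 at 5.85 and 6.47 and Ccr1 at -4.14 and -4.49 are the extremes against PMs.

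On the scale of log2(FPKM + 1), which understates the change of low genes, Ccr7 had the largest difference from PMs, in which it was at 0.645, 0.312 and 0.326 FPKM. The log2 difference was 5.85 in CD11b+ B cells (SE 0.25, adjusted p = 2.59e-06 by limma) and 6.47 in CD11b- B cells (SE 0.19, adjusted p = 6.38e-07). Ccr6 was at 0.167, 0.280 and 0.107 FPKM in PMs, giving 4.33 (SE 0.36, adjusted p = 7.71e-05) and 3.99 (SE 0.27, adjusted p = 2.80e-05) for the same comparisons by limma. No library of either B cell group overlapped the PMs for these receptors. The genes most like Ccr7 over the 9 libraries were the immunoglobulin kappa segments Igkv6-25 (r = 0.999) and Igkv13-84 (r = 0.998), and those most like Ccr6 were Gm45548 and the adaptor gene Grap2 (both r = 0.997), which describes the contrast of B cells with PMs that all 4 share.

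Cxcr5 was at 10.1, 2.99 and 2.72 FPKM in PMs, far from the 52.5 FPKM of the lowest B cell library. The log2 difference was 3.75 in CD11b+ B cells (SE 0.43, adjusted p = 0.000449 by limma) and 3.87 in CD11b- B cells (SE 0.41, adjusted p = 0.000310). PM replicate 1, the highest for Cxcr5, was the highest PM library for 9 of the 12 B cell markers. As a share of the CD11b- mean, Cxcr5 in PM replicates 1, 2 and 3 was 12.7%, 3.76% and 3.42%, while the 12 B cell markers had medians of 1.64%, 0.754% and 0.807% and reached at most 8.05%, 4.43% and 7.99%, in each library for Blnk. Ccr7 was 0.515%, 0.249% and 0.260% by the same measure. The summed B cell list was 253, 134 and 161 FPKM in PMs against 13047 to 16230 FPKM over the 6 B cell libraries, with each of the 12 markers detected, and its part in the level of Cxcr5 in PMs was not tested. Cxcr5 was most like Prpsap2 and Crtc2 (both r = 0.996).

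Cxcr4 was at 1.69, 0.739 and 0.466 FPKM in PMs (55, 39 and 17 reads). All B cell libraries were higher, and the log2 difference was 1.80 in both comparisons, with an SE of 0.44 and an adjusted p of 0.0177 by limma for CD11b+ B cells and an SE of 0.47 and an adjusted p of 0.0201 for CD11b- B cells. The call rested on few libraries. For CD11b+ B cells limma's adjusted p rose to 0.0523 without PM replicate 2, to 0.0545 without PM replicate 3 and to 0.0598 without CD11b+ replicate 2, and it was 0.0521 by edgeR, 0.00352 by DESeq2 and 0.0466 by edgeR without a filter. For CD11b- B cells it was 0.0478, 0.00510 and 0.0262 by these count tests, and by limma it was 0.0588 without PM replicate 2, 0.0617 without PM replicate 3, 0.0651 without CD11b- replicate 2, 0.0544 without CD11b- replicate 3 and 0.0540 with no filter on FPKM, and the difference fell to 1.34 without CD11b- replicate 3, the library with the most precursor markers.

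S1pr1 was at 85.3, 58.5 and 63.1 FPKM in PMs, at the 96.8th percentile of genes with a read. CD11b- B cells were higher in every library, by a log2 difference of 0.79 (SE 0.18, adjusted p = 0.0129 by limma), or 0.55 above the median of all genes. The call was lost with median-ratio scaling (0.26, adjusted p = 0.268), edgeR (0.28, 0.258), DESeq2 (0.26, 0.268) and edgeR without a filter (0.37, 0.339), and with limma without CD11b- replicate 1 (0.0552) or 2 (0.0579). CD11b+ B cells overlapped the PMs, with a difference of 0.47 (SE 0.22, 95% interval -0.04 to 0.98, adjusted p = 0.152 by limma) that came to -0.03 with median-ratio scaling, -0.01 by edgeR and -0.02 by DESeq2. S1pr1 was most like B4galnt2 (r = 0.981) and D2hgdh (r = 0.976).

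Ccr1 was at 179, 129 and 168 FPKM in PMs, at the 98.6th percentile. It fell by 4.14 on the log2 scale in CD11b+ B cells (SE 0.23, adjusted p = 8.35e-06 by limma) and by 4.49 in CD11b- B cells (SE 0.25, adjusted p = 1.08e-05). Ccr2 was at 15.6, 16.2 and 13.2 FPKM in PMs and fell by 3.70 (SE 0.28, adjusted p = 4.94e-05) and by 3.98 (SE 0.24, adjusted p = 1.49e-05) by limma. Both receptors kept these calls under each of the 18 alternatives. Per read on genes, Ccr2 was 63.7 times higher in PMs than in CD11b+ B cells (exact 95% counting interval 54.1 to 75.6) and 1285 times higher than in CD11b- B cells (652 to 2978, from 8 reads). The first ratio rested on single CD11b+ libraries, being 170 without replicate 1 and 39.8 without replicate 3. As a ratio of mean FPKM, the difference of CD11b- B cells from PMs was larger for Ccr2, at 1272, than for Ccr7, at 293. Ccr1 was most like Pdlim4 (r = 0.996) and Dok2 (r = 0.995), and Ccr2 most like Nrp1 and Wfdc18 (both r = 0.999), each of the 4 highest in PMs.

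Cx3cr1 was at 2.24, 0.570 and 0.825 FPKM in PMs, above every B cell library, with replicate 1 the highest. It fell by 1.04 in CD11b- B cells (SE 0.29, adjusted p = 0.0255 by limma), a call lost with no filter on FPKM (0.0695) and without CD11b- replicate 1 (0.0904), 2 (0.0847) or 3 (0.0768) and kept by edgeR (0.00632), DESeq2 (2.15e-09) and edgeR without a filter (6.00e-05). In CD11b+ B cells the difference was -0.78 (SE 0.32, adjusted p = 0.101 by limma). It passed with all 9 libraries in one fit (0.0358), with quantile normalization (0.0266), by edgeR (0.0352) and by DESeq2 (0.000369), but not by edgeR without a filter (0.0612). Cxcr2 was at 0.091, 0 and 0.195 FPKM in PMs (5, 0 and 12 reads). Its difference of 0.73 in CD11b+ B cells (SE 0.29, adjusted p = 0.0981 by limma) passed in a fit of all 9 libraries (0.0384) and without CD11b+ replicate 3 (1.05, 0.0111), and failed by edgeR (0.170), DESeq2 (0.0846) and edgeR without a filter (0.211). Cxcr2 in CD11b- B cells differed by -0.11 (SE 0.11, adjusted p = 0.438), and Ccr9, at 15, 0 and 1 reads in PMs, by 0.35 in CD11b+ B cells (SE 0.16, adjusted p = 0.149).

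The other genes of the pathway were followed in 6 lists with 69 genes. Between CD11b+ and CD11b- B cells limma called 0 of the 57 tested, beside 0.0689% of all genes, and 17 had an unadjusted p under 0.05, beside 7.68% of all genes. Cxcr3, the receptor for CXCL9 and CXCL10 that leads activated lymphocytes into inflamed tissue, was at 0.589, 0.596 and 0.288 FPKM in CD11b- B cells and at 15.7, 9.42 and 5.75 FPKM in CD11b+ B cells. Every CD11b+ library was higher by far, and the log2 difference of 2.83 (SE 0.35) had an adjusted p of 0.0513 by limma and of 0.0169 by edgeR. Ackr2, a decoy receptor that clears inflammatory CC chemokines, was at 1.20, 1.26 and 0.589 FPKM in CD11b- B cells and at 8.17, 5.22 and 5.95 FPKM in CD11b+ B cells. Its log2 difference was 1.88 (SE 0.27), with an adjusted p of 0.0765 by limma and of 0.0365 by edgeR. Ccl5, a ligand of CCR1, was at 0.562, 0.149 and 0.910 FPKM in CD11b- B cells and at 4.97, 5.05 and 4.61 FPKM in CD11b+ B cells, a log2 difference of 1.96 (SE 0.27, adjusted p = 0.0726 by limma and 0.137 by edgeR).

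Against PMs the number of pathway genes called ran from 29 to 37 (CD11b+) and from 33 to 40 (CD11b-) over the alternatives. Between the B cell groups it ran from 0 to 13 and depended more on the method. A fit of all 9 libraries and a minimum mean of 1 FPKM each called Cxcr3, Ackr2 and Ccl5, and edgeR called Cxcr3, Ackr2 and Ltb4r1, a leukotriene B4 receptor. DESeq2 and edgeR without a filter called 13 genes each, beside 2.09% and 1.53% of all genes. In DESeq2 these included the neutrophil and monocyte receptors C5ar1, Fpr1 and Fpr2. C5ar1, the receptor for complement C5a, was at 0.105, 0.056 and 0.073 FPKM in CD11b- B cells and at 2.58, 2.78 and 0.088 FPKM in CD11b+ B cells, with CD11b+ replicate 3 inside the CD11b- range as for Ccr2. Without that replicate limma called Cxcr3 and C5ar1.

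Against PMs, 15 of the 57 pathway genes tested were called higher and 19 lower with CD11b+ B cells, beside 21.5% and 8.78% of all genes. With CD11b- B cells it was 14 higher and 23 lower of 57, beside 25.8% and 11%. In either direction that made 34 and 37 genes, beside 30.3% and 36.7% of all genes. Among the other chemokine receptors Cxcr3 was called higher in CD11b+ B cells (2.86, SE 0.43, adjusted p = 0.00184 by limma), and in CD11b- B cells its difference from PMs was 0.03 (SE 0.29, adjusted p = 0.951). Gpr183, the oxysterol receptor that places B cells at the follicle edge, was called higher in both at 30.0 to 47.4 FPKM over the B cell libraries against 10.4 to 13.4 FPKM in PMs. Cmklr1, the chemerin receptor, was at 45.4 to 88.0 FPKM in PMs and at most at 0.190 FPKM in B cells. In the list of atypical and chemoattractant receptors, the calls were 2 higher and 5 lower of 10 tested for CD11b+ B cells, and 2 higher and 7 lower of 9 for CD11b- B cells. The shares of all genes were 21.5% higher and 8.78% lower for CD11b+ and 25.8% and 11% for CD11b- B cells, so the genes called higher were near the background in number.

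The other S1P receptors differed from PMs in both directions. S1pr4, a receptor of lymphocytes and other blood cells, was at 35.8, 47.4 and 48.2 FPKM in CD11b- B cells, at 30.3, 44.7 and 40.6 FPKM in CD11b+ B cells and at 1.86, 0.933 and 0.810 FPKM in PMs. S1pr5, known from NK cells and patrolling monocytes, was at 29.8, 40.0 and 45.6 FPKM in PMs and at most at 0.138 FPKM in the B cells. S1pr3 was at 1.88 to 6.16 FPKM in B cells and at 0.0077 to 0.012 FPKM in PMs, and with S1pr4 it was called higher and S1pr5 lower in both comparisons. None of the 4 was called between the B cell groups, beside 0.0689% of all genes, and S1pr4 differed there by -0.19 (SE 0.19, adjusted p = 0.729 by limma). Of the genes that make, export or break down S1P, Plpp3, Sgpp2 and Spns2 were called higher in both B cell groups, Sgpp1 was called lower in CD11b+ B cells, and Sgpl1, the S1P lyase, was called lower there at 17.6, 17.4 and 13.6 FPKM against 39.5, 24.4 and 34.9 FPKM in PMs, with 24.4, 20.8 and 24.2 FPKM in CD11b- B cells.

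**Figure D4:**
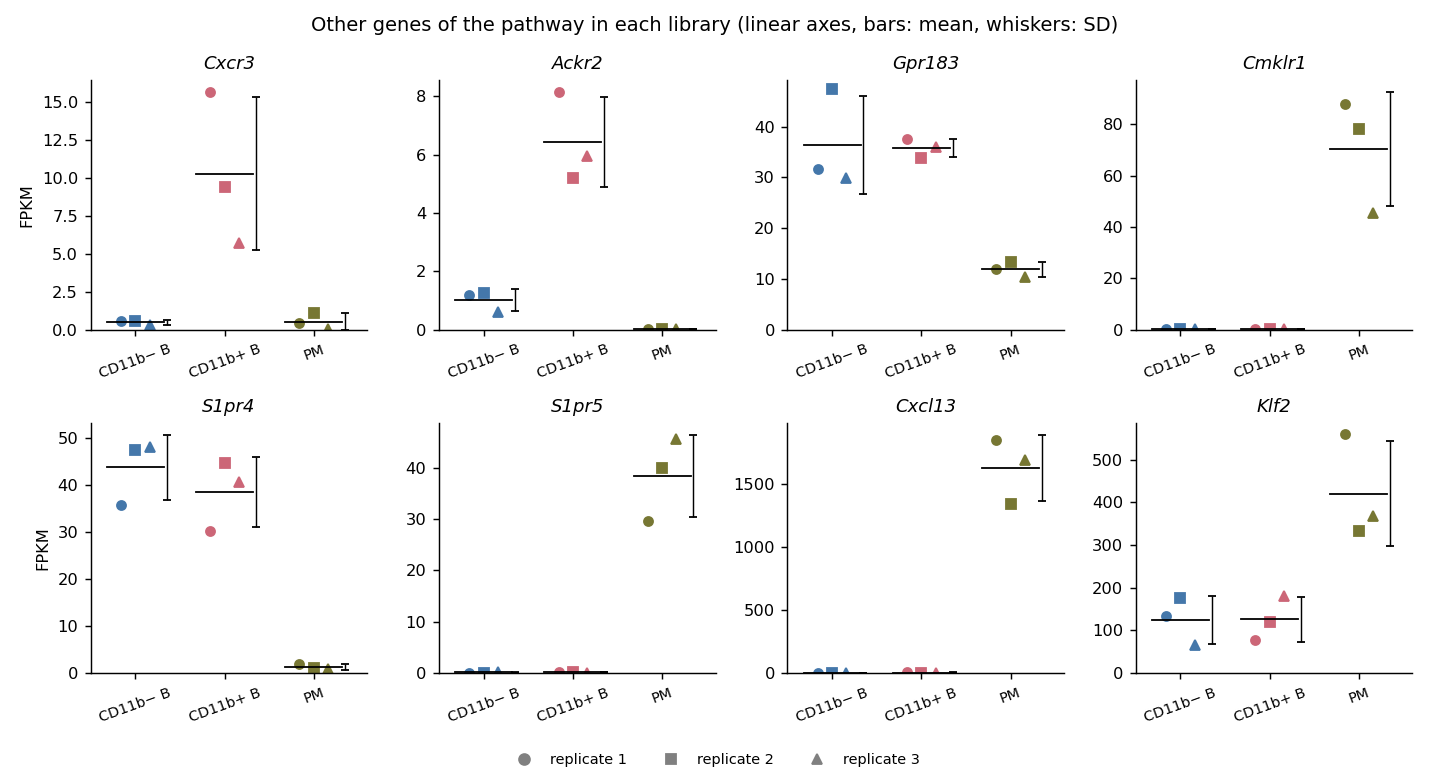
FPKM of 8 other genes of the pathway in each library, on linear axes that start at 0. Points are libraries, bars are group means and whiskers are the SD over 3 libraries. Cxcr3 and Ackr2 are higher in every CD11b+ library than in any CD11b- or PM library, S1pr4 is high in both B cell groups, and Cmklr1, S1pr5, Cxcl13 and Klf2 are highest in PMs.

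Ligands of these receptors were rare in B cells. The 17 ligands summed to 2.97 to 6.37 FPKM in CD11b- B cells, 10.9 to 15.4 FPKM in CD11b+ B cells and 1669 to 2191 FPKM in PMs. Most of the PM sum was Cxcl13, the CXCR5 ligand, at 1850, 1340 and 1690 FPKM, and Ccl9, a CCR1 ligand, was at 238 to 294 FPKM. No ligand was called higher in B cells, beside 21.5% of all genes for CD11b+ and 25.8% for CD11b- B cells, and 5 of the 12 tested were called lower in CD11b+ and 8 of the 12 in CD11b- B cells, beside 8.78% and 11% of all genes. Ccl19 and Ccl20, ligands of CCR7 and CCR6, had no read in any library.

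Of the 19 genes for coupling, desensitization and egress, the calls against PMs were 7 higher and 5 lower for CD11b+ B cells and 7 higher and 6 lower for CD11b- B cells, beside 21.5% and 8.78% of all genes for the former and 25.8% and 11% for the latter. Klf2, a transcription factor known to drive S1pr1, was at 562, 332 and 368 FPKM in PMs, at 133, 175 and 64.4 FPKM in CD11b- B cells and at 76.7, 118 and 181 FPKM in CD11b+ B cells. It was called lower in both B cell groups (-1.79, SE 0.35, adjusted p = 0.00629 and -1.83, SE 0.38, adjusted p = 0.00817 by limma), while S1pr1 was not. Cd69, which binds S1PR1 and takes it off the surface, was at 7.97 to 12.3 FPKM in B cells against 0.030 to 1.09 FPKM in PMs. Cnr2, a cannabinoid receptor that helps to retain immature B cells in BM, was at 63.8, 56.2 and 56.8 FPKM in CD11b- B cells and at 36.9, 40.3 and 21.8 FPKM in CD11b+ B cells, without overlap. Its difference of -0.86 (SE 0.22) between the B cell groups had an adjusted p of 0.388 by limma and of 0.270 by edgeR, and it was called by DESeq2 and by edgeR without a filter (0.00150).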

How the data were processed

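The authors made full-length cDNA libraries (SMART-seq HT) and sequenced read pairs. The submitters' processing notes name Trim Galore 0.4.4, Trimmomatic 0.36, cutadapt 1.16, STAR 2.7.2b, featureCounts 1.6.1 and DESeq2 1.20.0, with builds GRCm38 and GRCm39. The FPKM values deposited by the authors for 55322 genes are fragments scaled to exon length and to the fragments on genes. A second table deposited by the authors holds a normalized signal (reads over a size factor) for 11063 genes selected by a p-value, without S1pr1. It served only to check the reads. Positions are those of GENCODE M21 on GRCm38, matched by Ensembl identifier, since the starts in the table differ. The annotation and strand setting are not given in the sources used here.

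FPKM gave whole reads for 100% of values within 0.05 of a read, the same as the second table for 100% of its values, with 18014658 to 35251215 reads on genes per library. A count of 0 allows up to 3 reads, and such limits and intervals cover counting error only. Groups and replicates came from the sample titles. Each pair of groups was compared with limma 3.58.1 (trend, two-sided) on log2(FPKM + 1) in R 4.3.3, among genes with a mean of at least 0.05 FPKM over the 6 libraries, with Benjamini-Hochberg adjustment over all genes tested. Adjusted p-values are from limma unless edgeR 4.0.16 (quasi-likelihood) or DESeq2 1.42.0 on the whole reads is named. P-values measure the spread between these libraries, which the authors' use of SD marks as biological replicates but which may hold technical spread too. An exact permutation test of 3 against 3 cannot go below 0.1. The tests were run first on simulated data. Alternatives were other pseudocounts, filters, scalings, a replicate block, all 9 libraries in one fit, the count tests and each library left out. Read ratios with a library left out and marker sums without their leading gene were chosen after the data were seen. Replicate numbers were not treated as pairs.

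The receptors and lists were chosen with earlier results of these data known. Besides the receptors and the cell type markers set beside them, genes named are those past the threshold or highest in a pathway list, and the 2 genes most correlated with each receptor among those with a mean of at least 1 FPKM in a group. Genes that overlap a receptor are named too. Ltb4r1, Fpr1, Fpr2, Spns2, Ccl19, Ccl20, Ccr1l1 and Cd79a were named after their values were seen. Items withheld from the text are not reported here.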

Additional observations from a re-analysis of the deposited data

How the results depend on the processing

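The calls of Cxcr5, Ccr7, Ccr6, Ccr1 and Ccr2 against PMs held under all 18 alternatives run for each. Between the B cell groups, DESeq2 and edgeR without a filter raised the receptors called higher from 0 to 2, and no other alternative called one. The pathway genes called there rose from 0 to 2 with a pseudocount of 0.1, 1 with 0.01, 3 with a minimum mean of 1 FPKM, 3 with all 9 libraries, 1 without a trend, 3 by edgeR, and 13 by DESeq2 and by edgeR without a filter, and leaving out libraries gave 0 to 2. Against PMs, 3 to 5 receptors were called higher for CD11b- B cells when a library was left out (3 without CD11b- replicate 2). The difference of Cxcr4 between the B cell groups turned to -0.013 with median-ratio scaling, -0.0088 with quantile normalization, -0.041 by edgeR, -0.053 by DESeq2 and -0.061 by edgeR without a filter, and ranged from -0.41 to 0.46 with a library left out (-0.38 and -0.066 among them). With a library left out, Cxcr5 ranged from -0.27 to 0.11 and Ccr6 from -0.031 to 0.61, both turning without CD11b+ replicate 3. S1pr1 in CD11b+ B cells against PMs turned to -0.028 with median-ratio scaling, -0.013 by edgeR and -0.018 by DESeq2. The cause of these changes was not tested.

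Genes called over the whole table between the B cell groups went from 15 to 401 by DESeq2, 571 by edgeR without a filter, 42 by edgeR, 37 with a pseudocount of 0.1, 36 with all 9 libraries, 31 with a minimum mean of 1 FPKM, 2 with no filter, and 3 to 40 with a library left out (40 without CD11b+ replicate 3). Deviations of same-numbered CD11b+ and CD11b- libraries correlated at 0.284, -0.019 and 0.206 (replicates 1, 2 and 3). Replicates 1 and 3, which also share the number in their descriptions, had the highest correlations of any CD11b+ with any CD11b- library. Replicate 2, whose description numbers differ, did not correlate best with its own number. The labels do not say whether a number marks shared mice, so the numbers were not taken as pairs. A replicate block by title number gave 16 calls over all genes and 0 receptors, and a block by the numbers in the descriptions, shared by 2 pairs, gave 0 and 0. Depth limits Cxcr2, Ccr2, Cx3cr1 and Ccr9, with 3, 8, 11 and 69 reads in all in CD11b- B cells.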

Other observations

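Of the summed FPKM of the 10 receptors, S1pr1 made up 33.5% (CD11b- B cells), 32.5% (CD11b+ B cells) and 27.5% (PMs). Cxcr5 and Ccr7 made up 22.5% and 35.4% of the sum for CD11b- B cells and 25.4% and 28.1% for CD11b+ B cells, while Ccr1 made up 63.3% for PMs.

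Ccr9 was most like Apof (r = 0.976) and the pseudogene Igkv4-75 (r = 0.962) over the 9 libraries. Cx3cr1 was most like Gm42731 (r = 0.989) and Gsto2 (r = 0.987), by the correlation of log2(FPKM + 1).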
